A study of Homo sapiens with 10 samples.

Results

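The mRNAs of 28 proteins of the small ribosomal subunit were followed in libraries of RNA crosslinked to eIF4A, the helicase that opens mRNA 5' ends for ribosome loading. Members were chosen by symbol (RPSA, RPS2, RPS3, RPS3A, RPS4X and so on to RPS29, and FAU), and all 28 were found among the 39472 gene symbols of the count files. HEK 293T, an established human embryonic kidney cell line, was used in every group, and the cells carried eIF4A with a FLAG tag. The labels name neither the tagged paralog nor the way the tag was introduced. In the first group the cells were treated for 1 h with 20 nM silvestrol (3 libraries), in the second for 1 h with 20 nM CR-1-31-B (3 libraries), and in the control group with the vehicle DMSO (3 libraries). After treatment the cells were crosslinked with ultraviolet light (254 nm, 400 mJ/cm2), and the RNA held by the tagged protein was pulled down through its FLAG tag and sequenced (enhanced crosslinking and immunoprecipitation, eCLIP). A single input library, numbered 2, was made without antibody, and its treatment is not named in the labels. The libraries of each treatment are numbered 1 to 3, but nothing says that these were separate cultures, so p-values measure the spread between these libraries, which may be technical.

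The small subunit is the part of the ribosome that scans the 5' leader and reads the start codon, and its proteins line the channel through which mRNA enters, the decoding site, the platform where mRNA exits, and the head and body that hold these together. Vertebrate ribosomal protein mRNAs typically begin with a 5' terminal oligopyrimidine (TOP) tract, a cap-adjacent C followed by further pyrimidines, through which their translation follows growth signals. Silvestrol and CR-1-31-B are both rocaglates, small molecules known to clamp eIF4A onto RNA, with a preference for purines.

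The annotated starts of 8 members are shown because their leaders stood at the upper or lower end of the silvestrol comparison. Each line holds 10 bases before the RefSeq transcript start and 20 from the start on, 5′ to 3′ on the transcript strand, in GRCh38.p14. Capitals mark the unbroken run of pyrimidines that begins at the start, and a sequence without capitals begins with a purine.
RPS15, chr19:1438386-1438415, plus strand: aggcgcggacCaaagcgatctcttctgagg
RPS29, chr14:49598691-49598720, minus strand: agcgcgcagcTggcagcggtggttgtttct
RPS7, chr2:3575250-3575279, plus strand: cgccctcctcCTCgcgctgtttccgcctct
RPS3, chr11:75399508-75399537, plus strand: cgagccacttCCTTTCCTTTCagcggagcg
RPS6, chr9:19380217-19380246, minus strand: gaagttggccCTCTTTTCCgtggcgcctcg
RPS13, chr11:17077648-17077677, minus strand: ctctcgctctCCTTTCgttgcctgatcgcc
RPS28, chr19:8321486-8321515, plus strand: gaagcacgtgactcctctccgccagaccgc
RPS3A, chr4:151099618-151099647, plus strand: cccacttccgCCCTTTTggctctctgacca

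A start was called TOP-like when it began with C and with at least 5 pyrimidines in a row. A single RefSeq window was found for 23 of the 28 members, and 17 of them (73.9%) had a TOP-like start. Among all 22114 genes with a window 3.98% had one, and among large subunit proteins 24 of 30. The 6 members without a TOP-like start were RPS15, RPS29, RPS7, RPS4X, RPS26 and RPS28. Their leaders stood at both ends of the silvestrol comparison, with log2 fold changes of 1.90 (RPS15), 1.68 (RPS29) and 1.35 (RPS7), and of -0.21 (RPS4X), -0.86 (RPS26) and -1.76 (RPS28). A run of at least 6 purines within the first 50 bases was held by 5 of the 23 members (21.7%), against 46.4% of all genes with a window. These letters are those of 1 annotated start a gene, and the start used in these cells was not measured.

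The anti-FLAG libraries held 858733 to 1804732 counts and the input library 2193699. The members held 4862 to 15170 leader, CDS (coding sequence) and 3'UTR counts a library, so the lowest leaders rest on fewer than 10 counts in a library. A symbol in 1 class is called a feature here, and 62 member features had enough counts to be tested among 24713. These were all 28 leaders, 25 CDS (not those of RPSA, RPS10 and RPS26) and 9 3'UTRs. The CDS of RPS26 held 0 counts in all 10 libraries, and those of RPSA and RPS10 at most 8 in any anti-FLAG library. All 3 have near-identical processed pseudogenes in the genome, and how reads with several matches were handled is not given in the sources used here. Pseudogene rows also exist for members with many CDS counts, such as RPS2 (19959 over the 9 anti-FLAG libraries) and RPS16 (1564). A link between pseudogenes and the low CDS counts was not tested. Pseudogene rows of 11 small subunit symbols held 303 counts over the 9 anti-FLAG libraries together, and RPS9 had 71 further counts in the transcript class. Of the kidney and neuronal markers, PAX2 had 13 to 37 counts in the anti-FLAG libraries, NEFM 1 to 23 and LHX1 0 to 23. Blood and liver markers stayed at 9 counts or fewer, a range that the lowest NEFM and LHX1 values reached.

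The leader share of the members was higher with both compounds than with the vehicle on average, and the libraries overlapped for CR-1-31-B. Of the members' leader, CDS and 3'UTR counts, 32.8%, 29.3% and 27.9% lay in leaders with silvestrol (libraries 1, 2 and 3), 30.8%, 32.2% and 24.7% with CR-1-31-B, and 26.2%, 25.5% and 17.6% with DMSO. Every silvestrol library thus stood above every DMSO library, and CR-1-31-B library 3 stood below DMSO libraries 1 and 2. Within library numbers the share was higher than with DMSO in 3 of 3 pairs for each compound. The means were 30.01% ± 2.56 with silvestrol, 29.3% ± 3.97 with CR-1-31-B and 23.1% ± 4.79 with DMSO (SD, n = 3 each). Over all genes the share reached 37.9% ± 2.17 with silvestrol, 36.2% ± 6.40 with CR-1-31-B and 27.9% ± 2.07 with DMSO, and for large subunit proteins it was 40.7% ± 3.37, 37.9% ± 4.89 and 36.4% ± 3.96 in the same order. The input library was lower than all of them, with 5.33% of the members' counts in leaders (95% exact Clopper-Pearson interval 4.95% to 5.72%, which covers counting error only), 12.9% over all genes and 12.6% for the large subunit. The members' sum leans on 1 feature, the RPS2 CDS. It held 2586, 2718 and 2189 of the members' 10084, 8764 and 6137 counts in DMSO libraries 1, 2 and 3, and 5354 of 13159 in the input. The summed share thus does not describe a typical member, and its place against all genes rests largely on RPS2. The median share over members, given in the last section, was higher in each treatment. As a summed measure over chosen genes, the members' share was not tested.

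**Figure D1:**
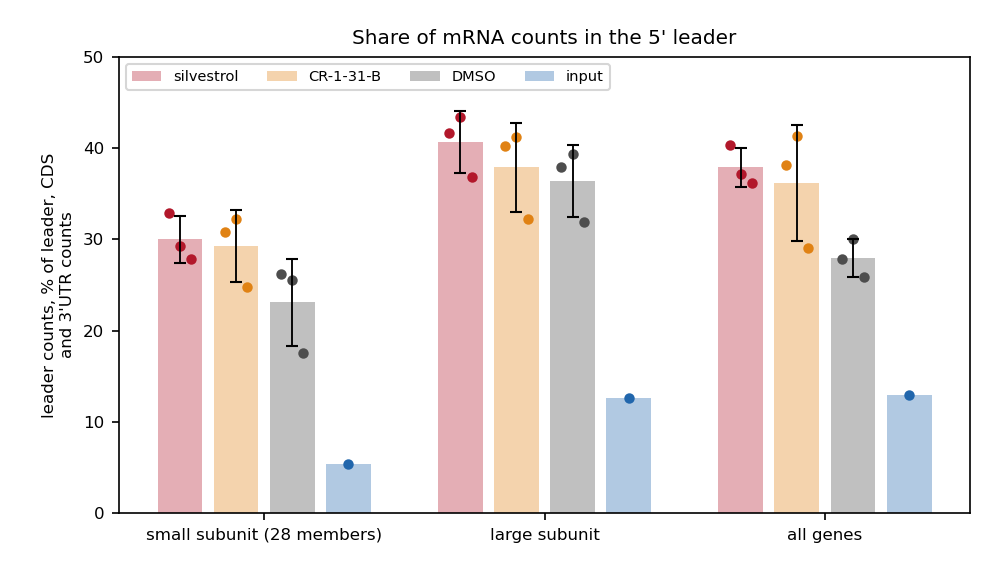
Leader counts as a percentage of leader, CDS and 3'UTR counts (vertical axis), for the small subunit, the large subunit and all genes, in silvestrol, CR-1-31-B, DMSO and input libraries. Bars are means, points single libraries (ordered 1 to 3 within a bar) and black lines the SD over 3 libraries. For the small subunit the silvestrol libraries lie between 27.9% and 32.8%, above all DMSO libraries (17.6% to 26.2%), and the input library is at 5.33%. The small subunit share is a sum in which the RPS2 CDS weighs heavily.

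As a part of all counts, member leaders overlapped between the groups. Member leaders took 0.276%, 0.168% and 0.170% of all counts with silvestrol, 0.262%, 0.228% and 0.131% with CR-1-31-B, and 0.246%, 0.208% and 0.114% with DMSO. Within library numbers CR-1-31-B was above DMSO in 3 of 3 pairs and silvestrol in 2 of 3. Member CDS took 0.549%, 0.387% and 0.430% with silvestrol, 0.572%, 0.469% and 0.387% with CR-1-31-B, and 0.668%, 0.588% and 0.516% with DMSO. The silvestrol mean of 0.455% ± 0.0838 and the CR-1-31-B mean of 0.476% ± 0.0926 were both below the DMSO mean of 0.591% ± 0.0760 (SD, n = 3 each), although silvestrol library 1 and CR-1-31-B library 1 lay above DMSO library 3. Within numbers the CDS share was lower than with DMSO in 3 of 3 pairs for each compound. The library numbered 1 had the highest CPM (counts scaled to the same library size) for 22 of the 28 leaders in silvestrol, 19 in CR-1-31-B and 21 in DMSO. Member leader levels thus moved with the number in every condition, and the values below are given per library for that reason. The same count over all leaders is not given here, so it cannot be said whether this is particular to the members.

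Binding to member leaders under the vehicle was read from DMSO against the input library. Leaders of the members were more frequent in DMSO, with a median log2 ratio of 2.73 over 28 leaders, against 2.01 over all 7122 tested leaders and 2.64 over 43 large subunit leaders. The ratio was at least 2-fold for 27 of 28 member leaders, beside 79.9% of all leaders. With leaders that lacked an input count set to a floor of 3 counts, the members' median was 2.69, and 79.7% of all leaders passed. The median was 0.26 over 25 member CDS and 0.36 over 9 member 3'UTRs, against 0.14 over all CDS and 0.19 over all 3'UTRs, and 1 member CDS, that of FAU, was at least 2-fold higher (17.4% of all CDS). Scaled to leader, CDS and 3'UTR counts alone, the medians were -0.22 (member CDS), -0.12 (member 3'UTRs), -0.34 (all CDS) and -0.29 (all 3'UTRs). Leader medians were then 2.25 for members and 1.53 over all leaders. The sign of the CDS and 3'UTR medians thus rests on the scaling. With 1 input library these ratios have no replicate check.

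The largest ratio with input counts was that of RPS3A, a protein at the mRNA exit. Its leader had 58.8, 73.5 and 20.1 CPM in DMSO libraries 1, 2 and 3, against 3.65 CPM in the input library (8 counts), a log2 ratio of 3.73. RPS24, a body protein, followed with 64.4, 24.2 and 13.8 CPM in DMSO against 2.74 CPM in the input (log2 ratio 3.55), and then RPS23, at the decoding site, with 133, 96.8 and 56.2 CPM in DMSO against 8.21 CPM in the input (log2 ratio 3.51). Every DMSO library was above the input in these 3 leaders. The RPSA leader held 8, 5 and 2 counts in DMSO and 0 in the input, and was at least 3.47-fold higher against the floor of 3 counts. RPS2, a protein of the entry channel, stood lowest, with 69.1, 54.0 and 45.6 CPM in DMSO against 45.6 CPM in the input (log2 ratio 0.31), and DMSO library 3 was no higher than the input. Its CDS held most of the RPS2 counts, at 2421 CPM ± 105 in DMSO (SD, n = 3) and 2441 CPM in the input.

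**Figure D2:**
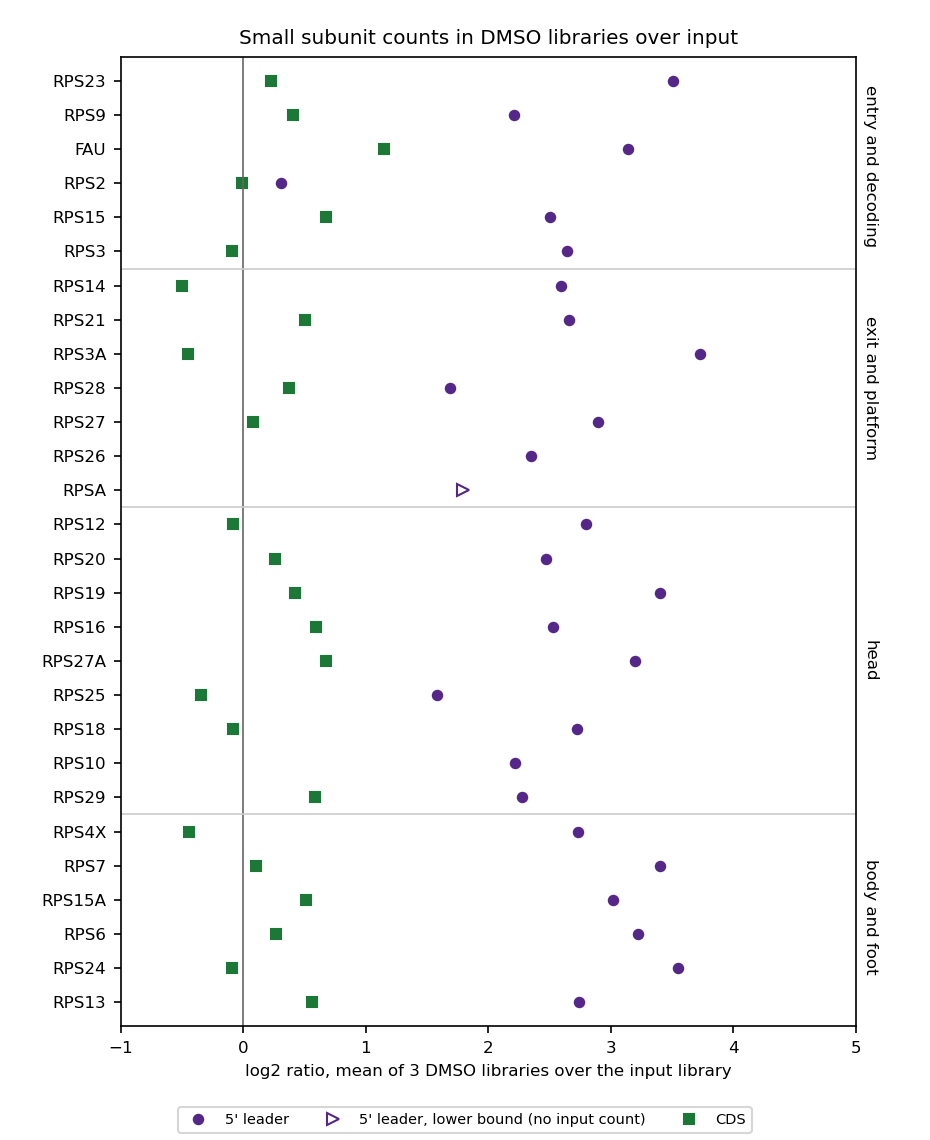
Log2 ratio of the mean CPM of 3 DMSO libraries over the CPM of the input library (horizontal axis, prior count 0.5) for each member's 5' leader (circles) and CDS (squares), with members grouped by place in the subunit. The open triangle is a lower bound for RPSA, which had no input count. Leaders lie to the right of the CDS for every member with both, from 0.31 (RPS2) to 3.73 (RPS3A), while CDS lie between -0.50 and 1.15.

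Silvestrol was compared with DMSO by the quasi-likelihood test of edgeR, p-values were adjusted by Benjamini-Hochberg over all 24713 features, and an adjusted p under 0.05 was called. CPM from here on are scaled by TMM factors. With silvestrol 1 of 62 member features rose, the leader of RPS15, and none fell, and 0.255% of all features and 0.857% of all leaders were called. Across the 28 member leaders the log2 fold changes ran from -1.78 to 1.90, their median was -0.19 beside 0.40 over all leaders, and 13 of 28 (46.4%) lay above 0 against 70.4% of all leaders. Without DMSO library 1 the members' median was 0.20. The amount of each mRNA under each treatment is not known here, so binding and abundance cannot be told apart, and CPM are relative to all other counts in a library.

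Among the proteins of the entry channel and decoding site, RPS15, a head protein whose tail reaches the decoding site, had the largest leader log2 fold change of all members. Its leader had 220, 173 and 212 CPM with silvestrol, against 70.5, 45.6 and 45.8 CPM with DMSO. All silvestrol libraries were more than 2-fold above all DMSO libraries. The log2 fold change was 1.90 (SE 0.39, edgeR adjusted p = 0.0389), and 1.92 with the library number as a block (adjusted p = 0.00268). The call was lost without silvestrol library 1 or 3, CR-1-31-B library 1 or any 1 of the DMSO libraries (adjusted p from 0.0127 to 0.251 over the 9 libraries left out in turn), while the log2 fold change stayed between 1.80 and 2.197. The RPS15 CDS did not pass (641, 348 and 522 CPM with silvestrol, 395, 455 and 322 CPM with DMSO, log2 fold change 0.37).

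RPS3, which lines the entry channel, had a leader at 155, 108 and 71.4 CPM with silvestrol and 76.3, 41.4 and 33.2 CPM with DMSO. Silvestrol library 3 lay below DMSO library 1, so the groups overlapped, but within each number the silvestrol library was the higher. The log2 fold change was 1.15 (SE 0.42, adjusted p = 0.370), and 1.17 with the block (adjusted p = 0.0468). RPS23, at the decoding site, had a CDS at 68.7, 21.6 and 43.3 CPM with silvestrol, against 173, 89.2 and 80.1 CPM with DMSO. All silvestrol libraries were below all DMSO libraries (log2 fold change -1.33, SE 0.45, adjusted p = 0.305; -1.40 with the block, adjusted p = 0.0287). The RPS2 leader was at 41.0, 28.4 and 8.92 CPM with silvestrol and 72.4, 61.6 and 49.2 CPM with DMSO, without overlap (log2 fold change -1.18, adjusted p = 0.430).

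Leaders of the exit and platform proteins included 2 of the 3 lowest values, none of them called. RPS28, at the mRNA exit, had 18.1, 1.14 and 14.0 CPM with silvestrol (30, 1 and 11 counts) and 45.0, 52.0 and 19.5 CPM with DMSO, without overlap (log2 fold change -1.76, adjusted p = 0.599). RPS3A had 18.1, 22.7 and 15.3 CPM with silvestrol and 61.7, 83.9 and 21.8 CPM with DMSO, where DMSO library 3 lay below silvestrol library 2 (log2 fold change -1.57, adjusted p = 0.531). RPS14, a platform protein lost in a form of myelodysplasia, pointed the other way with 245, 81.9 and 94.3 CPM with silvestrol against 123, 38.2 and 53.8 CPM with DMSO, and its groups overlapped (log2 fold change 0.97, adjusted p = 0.640). RPSA, a protein of the exit side, had 11.4, 12.5 and 6.37 CPM with silvestrol and 7.83, 5.31 and 2.29 CPM with DMSO, on 5 to 19 counts a silvestrol library, and its groups overlapped too.

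In the head, RPS29, a zinc-binding protein, had the next largest leader log2 fold change. Its leader had 107, 81.9 and 71.4 CPM with silvestrol, against 35.2, 28.7 and 17.2 CPM with DMSO, without overlap. The log2 fold change was 1.68 (SE 0.44, adjusted p = 0.13), and it was called with the block at 1.73 (adjusted p = 0.0148). The 3 member leaders with the highest mean CPM in DMSO were also head proteins, RPS12, RPS20 and RPS19 (CPM a gene, not per length). RPS12 had 162, 146 and 115 CPM with silvestrol and 195, 455 and 103 CPM with DMSO, so that DMSO library 2 stood far above the others of both groups. CR-1-31-B library 2 was near it, at 434 CPM. RPS20 had 192, 104 and 166 CPM with silvestrol and 172, 212 and 132 CPM with DMSO, and RPS19 had 195, 155 and 139 CPM with silvestrol and 206, 167 and 89.3 CPM with DMSO. In all 3 the groups overlapped (log2 fold changes -0.83, -0.16 and 0.08 in that order). RPS27A, made as a fusion with ubiquitin, had 48.8, 31.8 and 24.2 CPM with silvestrol and 115, 94.5 and 41.2 CPM with DMSO, with overlap (log2 fold change -1.24, adjusted p = 0.325).

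In the body, RPS7 had a leader at 330, 201 and 167 CPM with silvestrol, against 115, 105 and 52.7 CPM with DMSO, without overlap. Its log2 fold change was 1.35 (SE 0.41, adjusted p = 0.214), and 1.38 with the block (adjusted p = 0.0100). RPS6, the substrate of S6 kinase, had 190, 93.3 and 91.7 CPM with silvestrol and 80.3, 60.5 and 30.9 CPM with DMSO, also without overlap (log2 fold change 1.13, adjusted p = 0.395; adjusted p = 0.0999 with the block). RPS13, which joins the subunit early in assembly, had the lowest leader log2 fold change, at 18.1, 1.14 and 2.55 CPM with silvestrol and 37.2, 29.7 and 16.0 CPM with DMSO. Its silvestrol values rest on 30, 1 and 2 counts and overlapped with DMSO through library 1 (log2 fold change -1.78, adjusted p = 0.531). The CDS of RPS15A had 75.3, 38.7 and 31.9 CPM with silvestrol, against 161, 136 and 95.03 CPM with DMSO. These groups did not overlap (log2 fold change -1.40, SE 0.39, adjusted p = 0.159), and with the block the CDS of RPS15A fell (-1.46, adjusted p = 0.0151). Among the leaders not given above, those of RPS26, RPS24, RPS23, FAU, RPS21, RPS16, RPS4X, RPS25, RPS18 and RPS10 had log2 fold changes between -0.86 and 0.70 with overlapping groups, RPS27 was at 1.07 with overlap, RPS15A at -1.14 with overlap, and RPS9 at 0.86 without.

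**Figure D3:**
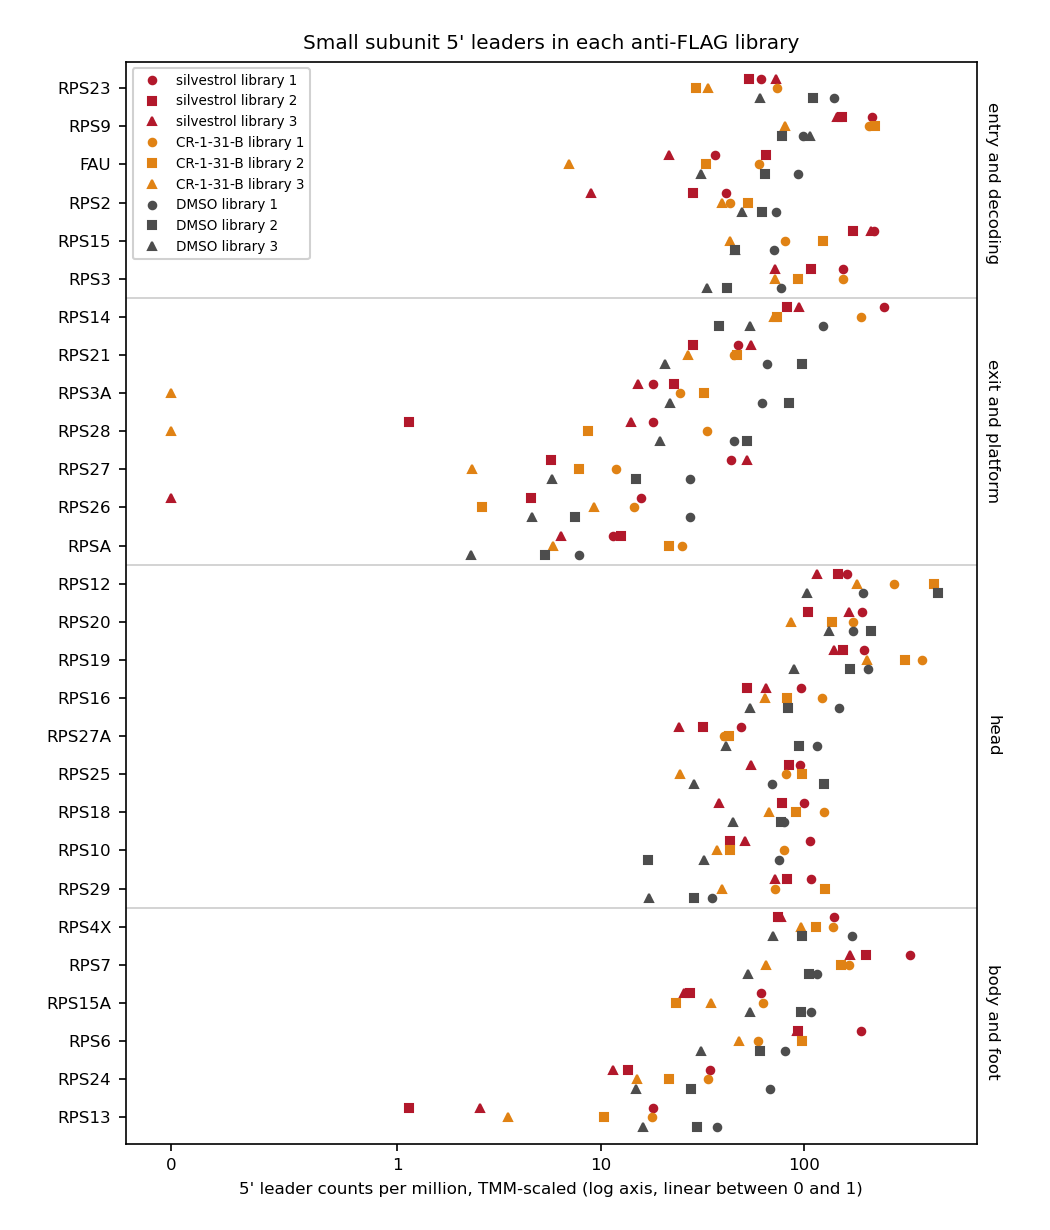
CPM of each member's 5' leader (horizontal axis, TMM-scaled, log axis that is linear between 0 and 1) in the silvestrol, CR-1-31-B and DMSO libraries, with members grouped by place in the subunit and marker shape giving the library number. RPS15, RPS29, RPS7, RPS6 and RPS9 have all silvestrol points to the right of all DMSO points, and RPS2 and RPS28 have them to the left.

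Counted over the members, 5 leaders (RPS15, RPS29, RPS7, RPS6 and RPS9) had every silvestrol library above every DMSO library (17.9%, against 19% of all leaders), and RPS2 and RPS28 had every one below (2 of 28, against 2.16% of all leaders). In the CDS, 10 of 25 members had every silvestrol library below every DMSO library (40%, against 8.64% of all CDS), and none had every one above (4.84%). These 10 were RPS15A, RPS23, RPS28, RPS13, RPS27A, RPS24, RPS4X, RPS19, RPS2 and RPS21. The median log2 fold change was -0.44 over 25 member CDS, against -0.12 over all CDS and -0.35 over 43 large subunit CDS. It was -0.71 over 9 member 3'UTRs, against -0.26 over all 3'UTRs and -0.42 over 15 large subunit 3'UTRs. The highest member CDS were RPS7 (287, 99.0 and 238 CPM with silvestrol, 140, 87.0 and 88.2 CPM with DMSO, log2 fold change 0.99), RPS29 (0.52) and RPS15 (0.37). At an unadjusted p under 0.05 there were 18 of 62 member features (8.09% of all features), among them 12 of 28 member leaders (17.5% of all leaders) and 6 of 25 member CDS (5.53% of all CDS). Tested member CDS held 349 (RPS18) to 19959 (RPS2) counts over the 9 anti-FLAG libraries. Groups separate more easily at high counts, and the shares over all features, here and below, were not matched for counts. Whether count depth accounts for the members' higher shares was not tested.

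The members' 3'UTR counts were few. RPS14 had 13.3, 19.3 and 7.64 CPM with silvestrol and 23.5, 26.5 and 33.2 CPM with DMSO, and RPS28 had 26.5, 25.0 and 22.9 CPM with silvestrol and 50.9, 53.1 and 32.1 CPM with DMSO. These 2 of 9 lay below every DMSO library (10.9% of all 3'UTRs), with log2 fold changes of -1.04 and -0.86. RPS3 had the lowest log2 fold change (-1.06, adjusted p = 0.675), and RPS4X, RPS3A and RPS29 were the highest at -0.31, 0.06 and 0.09.

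The number as a block raised the member calls with silvestrol to 6, against 1.28% of all features. The leaders of RPS15, RPS29, RPS7 and RPS3 then rose (3.71% of all leaders did) and the CDS of RPS15A and RPS23 fell (0.0475% of all CDS did). The plot of these 6 features shows the pairs behind this count. DESeq2 without the block called 4 member features with silvestrol, beside 308 of all 24713 features. They were the leaders of RPS15 (DESeq2 adjusted p = 0.000292), RPS29 (0.0194) and RPS7 (0.0446) and the CDS of RPS15A (0.0348). Limma voom called 1, the RPS15 leader (adjusted p = 0.0123), beside 74 of all features.

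**Figure D4:**
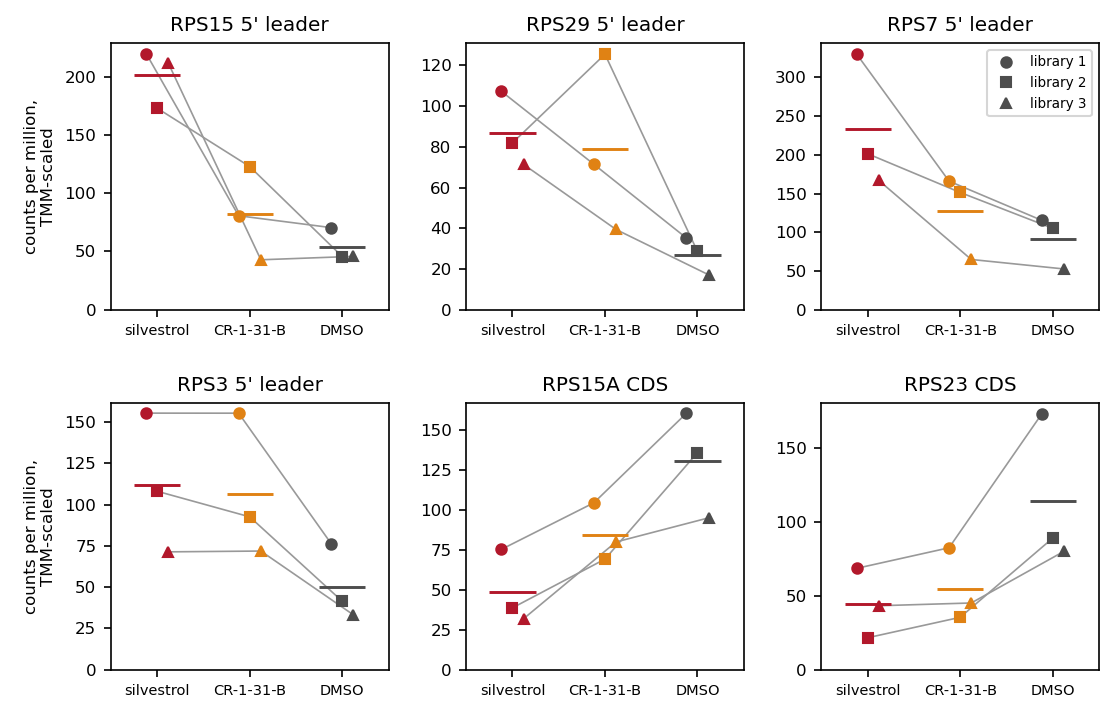
TMM-scaled CPM (vertical axes, from 0) of the 6 member features called with silvestrol when the library number was a block, in silvestrol, CR-1-31-B and DMSO libraries. Marker shape gives the library number, grey lines join libraries of the same number, and horizontal bars are means of 3 libraries. For each feature every silvestrol library lies on the same side of the DMSO library with its number.

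CR-1-31-B was compared with the same 3 DMSO libraries, so its values and those of silvestrol share their controls and are set side by side only. No member feature was called by edgeR's quasi-likelihood test, beside 0.291% of all features and 0.8% of all leaders. DESeq2 called 1 and limma voom 0, and 17 of 62 member features had an unadjusted p under 0.05 (8.86% of all features). Over member leaders the median was -0.10 beside 0.35 over all leaders, and 13 of 28 lay above 0 (46.4%, against 67.6%). Without DMSO library 1 the members' median was 0.33. The median of member CDS was -0.39 against -0.03 for all CDS, and of member 3'UTRs -0.58 against -0.27. Large subunit CDS had a median of -0.21 and large subunit 3'UTRs one of -0.69, lower than that of the members.

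RPS29 was the 1 member feature called with the number as a block (1.48% of all features, and 3.59% of all leaders as higher). Its leader had 71.4, 125 and 39.4 CPM with CR-1-31-B and 35.2, 28.7 and 17.2 CPM with DMSO. Every CR-1-31-B library lay above every DMSO library, the only such leader of 28 (3.57%, against 15.9% of all leaders). The log2 fold change was 1.54 without the block, and with it the leader rose (1.49, adjusted p = 0.0365). Without CR-1-31-B library 3 the unblocked test also called it (log2 fold change 1.86, adjusted p = 0.0384).

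Above RPS29 by size stood RPSA, with 25.1, 21.6 and 5.79 CPM with CR-1-31-B and 7.83, 5.31 and 2.29 CPM with DMSO (38, 25 and 5 counts against 8, 5 and 2). CR-1-31-B library 3 overlapped with DMSO (log2 fold change 1.75). RPS3 followed with 155, 92.6 and 71.8 CPM with CR-1-31-B and 76.3, 41.4 and 33.2 CPM with DMSO, again with overlap (log2 fold change 1.08). At the lower end, RPS3A had 24.5, 32.0 and 0 CPM with CR-1-31-B and 61.7, 83.9 and 21.8 CPM with DMSO (log2 fold change -1.52, adjusted p = 0.497). RPS28 had 33.1, 8.65 and 0 CPM with CR-1-31-B and 45.0, 52.0 and 19.5 CPM with DMSO (log2 fold change -1.41), and RPS13 had 17.9, 10.4 and 3.48 CPM with CR-1-31-B and 37.2, 29.7 and 16.0 CPM with DMSO (log2 fold change -1.34). All 3 overlapped with DMSO through CR-1-31-B library 1, and RPS3A through library 2 as well. The 0 of RPS3A and of RPS28 came from CR-1-31-B library 3, which also had the lowest leader share of its group.

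In the CDS, 5 of 25 members had every CR-1-31-B library below every DMSO library (20%, against 7.38% of all CDS), namely RPS24, RPS2, RPS14, RPS27 and RPS4X, and RPS7 had every one above (8.4% of all CDS). The lowest CDS were RPS23, with 82.6, 35.5 and 45.2 CPM with CR-1-31-B and 173, 89.2 and 80.1 CPM with DMSO (log2 fold change -1.06), RPS13 (-0.95) and RPS24 (-0.82). The highest were RPS7, with 206, 219 and 167 CPM with CR-1-31-B and 140, 87.0 and 88.2 CPM with DMSO (log2 fold change 0.91), RPS29 (0.65) and RPS9 (0.64). The RPS2 CDS, which held more counts than any other member CDS, had 2098, 1592 and 1231 CPM with CR-1-31-B and 2531, 2885 and 2506 CPM with DMSO, without overlap (log2 fold change -0.69, adjusted p = 0.535). Of the 3'UTRs, RPS28 (-1.22), RPS14 (-1.19) and RPS23 (-0.94) were lowest and below every DMSO library (3 of 9, against 9.59% of all 3'UTRs). RPS4X (-0.49), RPS3 (-0.31) and RPS9 (0.40) were the highest.

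**Figure D5:**
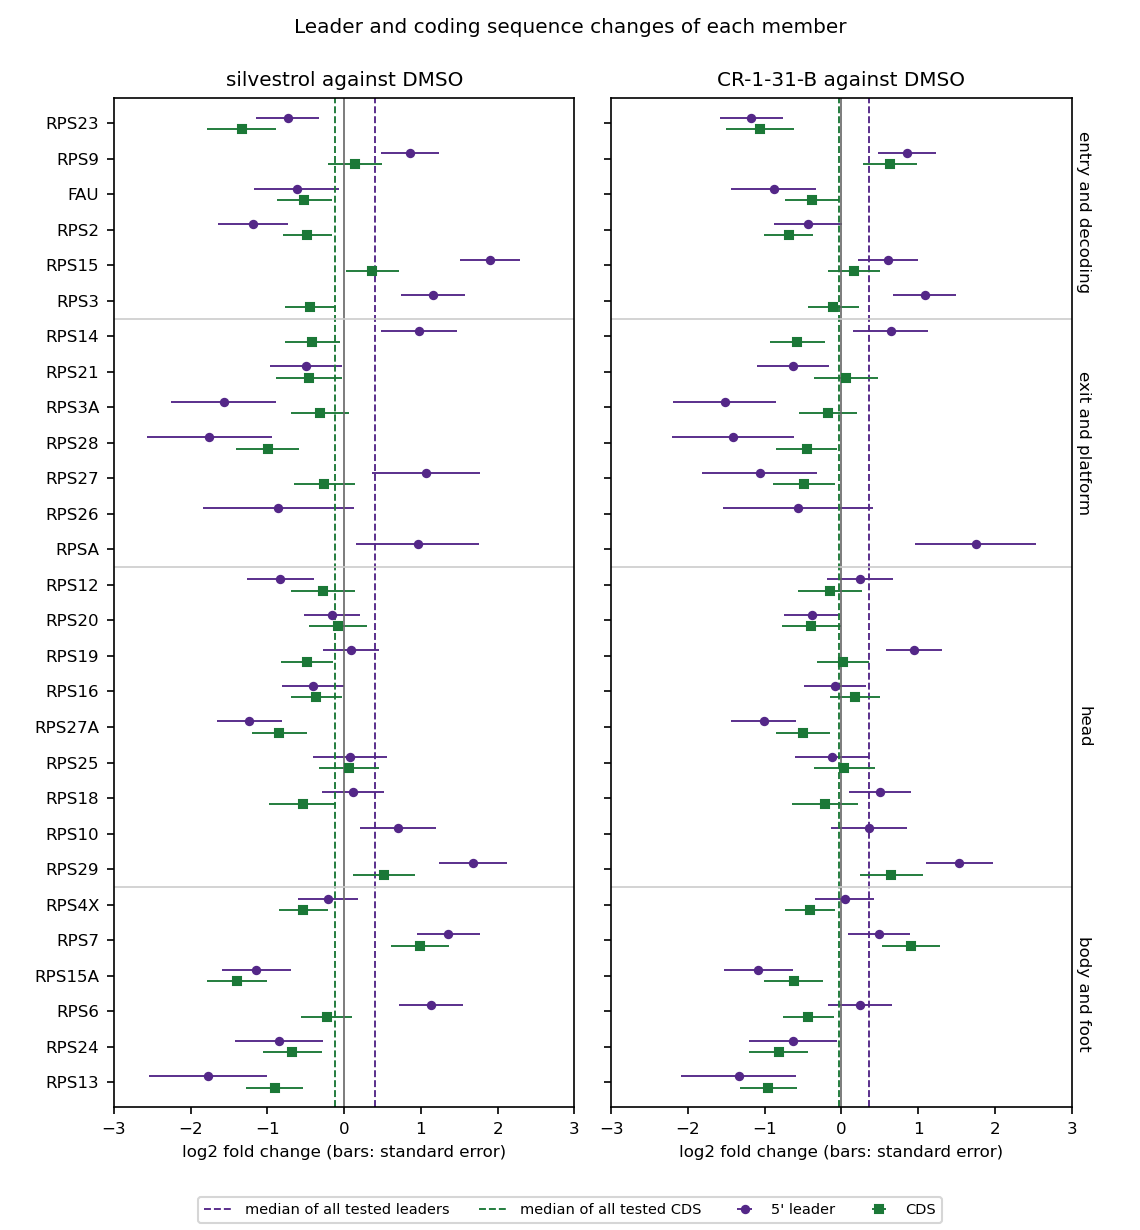
Log2 fold changes with standard errors (horizontal axes) of each member's 5' leader (circles) and CDS (squares), for silvestrol against DMSO (left) and CR-1-31-B against DMSO (right), with members grouped by place in the subunit. Dashed lines are the medians of all tested leaders (0.40 and 0.35) and of all tested CDS (-0.12 and -0.03). Member leaders spread from -1.78 to 1.90 on the left and from -1.52 to 1.75 on the right, with SDs of 1.08 and 0.91 over members.

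The mean of both rocaglates against DMSO called no member feature by edgeR (0.49% of all features), while DESeq2 called 2 (the RPS15 and RPS29 leaders) and limma voom 0. At an unadjusted p under 0.05 there were 23 of 62 member features, against 10% of all features. With the block 8 member features were called (2.04% of all features). The leaders of RPS29 (log2 fold change 1.61, adjusted p = 0.00935), RPS15 (1.25), RPS3 (1.13) and RPS7 (0.92) rose, as 5.38% of all leaders did. The RPS15A leader (-1.20, adjusted p = 0.0344) and the CDS of RPS23 (-1.24, adjusted p = 0.0122), RPS15A (-1.04) and RPS13 (-0.91) fell, as 0.0842% of all leaders and 0.226% of all CDS did. RPS13 had CDS values of 108, 78.5 and 82.8 CPM with silvestrol, 120, 64.0 and 76.5 CPM with CR-1-31-B and 241, 152 and 113 CPM with DMSO, where CR-1-31-B library 1 alone overlapped with DMSO. RPS15A had leader values of 61.4, 27.3 and 25.5 CPM with silvestrol, 62.8, 23.4 and 34.8 CPM with CR-1-31-B and 108, 96.6 and 53.8 CPM with DMSO, and library 1 of each compound lay above DMSO library 3.

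The compounds were compared directly as 1 pair, at the same dose of 20 nM and the same 1 h. No member feature was called by edgeR (0% of all features), DESeq2 or limma voom, and 6 member features had an unadjusted p under 0.05 (2.46% of all features), all of them leaders (3.37% of all leaders). With the block none was called (0.00405% of all features). The median log2 difference of CR-1-31-B over silvestrol was 0.02 over member leaders and 0.13 over member CDS, against -0.05 and 0.11 over all leaders and all CDS. A p that misses the threshold does not show that the compounds act alike, and the intervals of single leaders were wide.

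RPS15 had the smallest p of the member leaders, with 80.7, 123 and 42.9 CPM with CR-1-31-B and 220, 173 and 212 CPM with silvestrol. Every CR-1-31-B library lay below every silvestrol library, and the log2 difference was -1.29 (95% interval -2.07 to -0.50, unadjusted p = 0.00256, edgeR adjusted p = 1.00). RPS7 also lay lower without overlap, with 166, 151 and 64.9 CPM with CR-1-31-B and 330, 201 and 167 CPM with silvestrol (-0.87, 95% interval -1.70 to -0.04). RPS19, mutated most often in Diamond-Blackfan anaemia, lay higher without overlap, with 378, 311 and 203 CPM with CR-1-31-B and 195, 155 and 139 CPM with silvestrol (0.87, 95% interval 0.11 to 1.62). RPS12 did as well, with 276, 434 and 181 CPM with CR-1-31-B and 162, 146 and 115 CPM with silvestrol (1.07, 95% interval 0.17 to 1.98). Such separation was found for 2 leaders in each direction (7.14%), beside 5.05% of all leaders below and 3.19% above. RPS27, a zinc-finger protein of the platform, had the largest difference, -2.13 (95% interval -3.65 to -0.61), on 18, 9 and 2 counts with CR-1-31-B and 72, 5 and 41 counts with silvestrol, which overlapped. RPS29 had a log2 difference of -0.14, with a 95% interval of -0.99 to 0.71.

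A second measure compared the odds that a count of a gene lay in its leader rather than in its CDS or 3'UTR, so that a change in the amount of an mRNA cancels. It was fitted with edgeR over 10396 genes, among them 27 members (RPS26 had too few counts outside its leader). No member was called for silvestrol (0.558% of all genes), CR-1-31-B (0.125%), both rocaglates (0.914%) or CR-1-31-B against silvestrol (0%). At an unadjusted p under 0.05 there were 7, 4, 8 and 3 of the 27 members in that order, against 10.6%, 8.93%, 11.6% and 2.72% of all genes. The members had a median log2 odds change of 0.34 (silvestrol) and 0.12 (CR-1-31-B), against 0.55 and 0.45 over all genes and 0.32 and -0.09 over large subunit genes.

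With the block, the leader odds of RPS3 and RPS15 rose with silvestrol (2 of 27, against 1.16% of all genes). In RPS3 26.4%, 27.5% and 19.6% of counts lay in the leader with silvestrol, 25.2%, 15.9% and 17.2% with CR-1-31-B, and 13.4%, 7.25% and 7.97% with DMSO. Both compounds stood above DMSO in all libraries (log2 odds change with silvestrol 1.65, adjusted p = 0.0647, and 0.0124 with the block; with both rocaglates 1.43, adjusted p = 0.00998 with the block, where 1.74% of all genes were called). In RPS15 the leader held 25.5%, 33.2% and 28.8% of counts with silvestrol, 13.0%, 21.2% and 11.9% with CR-1-31-B, and 15.1%, 9.11% and 12.5% with DMSO. Silvestrol stood above all other libraries and CR-1-31-B overlapped with DMSO (log2 odds change with silvestrol 1.58, adjusted p = 0.0710, and 0.0212 with the block; with CR-1-31-B 0.37, adjusted p = 0.869). RPS2 had the smallest mean share in DMSO of all members, at 1.99%, 1.502% and 0.492% with silvestrol, 2.01%, 3.21% and 3.10% with CR-1-31-B, and 2.78%, 2.09% and 1.92% with DMSO, against 1.83% in the input library.

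Other genes of the same machinery were read from lists of large subunit proteins, small subunit assembly factors and the factors that join the small subunit before scanning. Of 43 large subunit leaders tested, 3 rose with silvestrol (RPL18, RPL24 and RPL41) and 2 with CR-1-31-B (RPL18 and RPL24), and of 43 CDS that of RPL41 rose with each, while none fell. None of 12 leaders and 23 CDS of assembly factors was called with either compound, nor any of 13 leaders and 17 CDS of the initiation factor list. Over all features 0.857% of leaders and 0.0119% of CDS were called with silvestrol, and 0.8% and 0.155% with CR-1-31-B. At such shares, lists this small would usually hold no call. With the block, the CDS of RPL14 fell with silvestrol, while with CR-1-31-B 3 large subunit leaders rose and 2 fell and the CDS of RPL7 rose beside that of RPL41. In the initiation factor list the EIF3M leader and the EIF3B CDS then rose with CR-1-31-B, and assembly factors still had no call. With the block and CR-1-31-B, 3.59% of all leaders rose, 0.0562% of them fell and 0.998% of all CDS rose. With the block and silvestrol, 0.0475% of all CDS fell. Large subunit leaders had a median log2 fold change of -0.04 (silvestrol) and -0.24 (CR-1-31-B), against -0.11 and -0.08 in assembly factors and 0.59 in the initiation factors with each compound. In CDS the medians were -0.35 and -0.21 in the large subunit, -0.26 and -0.16 in assembly factors, and -0.38 and -0.50 in initiation factors. In 3'UTRs they were -0.42 and -0.69, 0.05 and 0.09, and -0.45 and -0.28 in the same order.

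Leader changes were set beside the first 50 bases from the RefSeq start for the 23 members with a window, as a description. With silvestrol the median log2 fold change was 0.08 over 17 members with a TOP-like start and 0.57 over the 6 others, and with CR-1-31-B it was -0.08 and 0.27. The 6 others split into 3 values of 1.35 or more and 3 of -0.21 or less with silvestrol, so their median lies between them and describes neither. Over large subunit leaders it was -0.18 (21 TOP-like) and 0.44 (6 others) with silvestrol, and 0.05 and -0.35 with CR-1-31-B, the opposite order. Over all leaders with a window the median was 0.31 (243 TOP-like) and 0.43 (3583 others) with silvestrol, and 0.24 and 0.42 with CR-1-31-B. The share of purines in these bases had a Pearson r of 0.45 and a Spearman rho of 0.49 with the silvestrol fold change across members, and 0.39 and 0.44 with that of CR-1-31-B. Across the 3826 tested leaders with a window, the Pearson r was 0.22 (silvestrol) and 0.18 (CR-1-31-B). Across 27 large subunit leaders it was -0.06 (rho -0.09) and -0.02 (rho -0.02), so the relation of purine share across members was not seen in that set. The longest run of purines in these bases had an r of 0.47 (rho 0.42) with silvestrol and 0.59 (rho 0.49) with CR-1-31-B across members. Over all leaders with a window its r was 0.21 and 0.17. In large subunit leaders it was 0.09 (rho 0.11) and 0.31 (rho 0.41). The run of pyrimidines at the start had an r of -0.06 and 0.01 across members. The share of G and C in the 50 bases had an r of -0.30 (rho -0.28) with silvestrol and -0.20 (rho -0.23) with CR-1-31-B across members. In large subunit leaders it was -0.31 (rho -0.17) and -0.04 (rho 0.14), and over all leaders with a window -0.04 and -0.07. These points share the same libraries and DMSO controls, and 4 window measures were examined.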

How the data were processed

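Per the submitters' processing notes, reads were handled with cutadapt and Bowtie 1.1. The authors deposited raw counts per gene symbol in 7 classes, among them 5' leader, CDS and 3'UTR, 1 table a library. The genome build, annotation, strand, treatment of duplicates and of reads with several matches are not given in the sources used here. Library totals were 858733 to 2193699 counts, and intervals and floors cover counting error only.

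Features passing edgeR's filter by expression were fitted over all 9 anti-FLAG libraries (R 4.3.3, edgeR 4.0.16 quasi-likelihood, TMM, Benjamini-Hochberg over 24713 features). DESeq2 1.42.0 and limma 3.58.1 (voom) were alternatives, with other scaling, no filter, a replicate block and each library left out. Leader odds used leader against CDS plus 3'UTR counts with library effects, for genes with sums of at least 20. DMSO was set against input as CPM of all counts with a prior count of 0.5. The fits were tested on simulated data.

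Library numbers were checked as pairs through deviations from group means (prior count 2). These correlated at 0.102 to 0.263 in 9 same-number pairs and -0.203 to 0.0163 in the other 18. Deviations within a group cancel, so the 18 values are not independent of the 9. With all 9 over 0.1, the lowest only just, the numbers were taken as pairs from the data. The main counts of calls come from the fit without the block, and blocked values are given where they change a call.

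The members and all lists were chosen with earlier results of these data known. Members were named by a rule: features that were called, and the 3 highest and 3 lowest log2 fold changes a class and comparison, together with the 3 leaders highest in DMSO; others named beyond it, such as RPS6, RPS14 and RPS27A, were chosen after their values were seen. Sequences came from RefSeq windows of GRCh38.p14. For RPS2, RPS15A, RPS20, RPS19 and RPS27A no single window was found. A result on 1 large subunit gene is not reported here.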

Additional observations from a re-analysis of the deposited data

How the results depend on the processing

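Member features called with silvestrol numbered 1, and 2 without the count filter, 4 with DESeq2, 6 with the replicate block and 0 to 1 with 1 library left out. With CR-1-31-B there were 0, against 1 with DESeq2, 1 with the replicate block and 0 to 1 with 1 library left out; with both rocaglates 0, against 1 without the filter, 2 with DESeq2, 8 with the block and 0 to 2. CR-1-31-B against silvestrol stayed at 0 under every setting run. Over all features, silvestrol called 63, against 316 with the block, 308 with DESeq2 and 215 without the filter. CR-1-31-B called 72, against 365, 335 and 225, and both rocaglates 121, against 505, 531 and 320. Calls for leader odds numbered 2 with the block with silvestrol (0 to 2 with 1 library left out, 2 without CR-1-31-B library 3), and with both rocaglates 1 with minimum sums of 50, 1 against CDS alone, 1 with the block and 0 to 1 with 1 library left out. The cause was not tested.

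With 1 library left out, the member medians with CR-1-31-B ran from -0.42 to 0.33 in leaders (0.33 without DMSO library 1, -0.42 without DMSO library 3) and from -0.49 to -0.12 in CDS, and with silvestrol from -0.45 to 0.20 in leaders, so the sign of both leader medians rests on single libraries. For CR-1-31-B against silvestrol they ran from -0.0104 to 0.37 in CDS and from -0.43 to 0.16 in 3'UTRs. As a median over members, the leader share was 40.8% with silvestrol, 34.4% with CR-1-31-B and 32.1% with DMSO.

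Some signs of single features turned too. With the block these were the RPS3A leader for CR-1-31-B against silvestrol (0.05, and -0.27 with the block), the RPS25 leader with both rocaglates (-0.02, and 0.07), the RPS19 CDS with CR-1-31-B (0.02, and -0.02) and the RPS7 CDS for CR-1-31-B against silvestrol (-0.08, and 0.01). The rest given here are 3'UTRs with few counts. With silvestrol, RPS3A was at -0.027 with the block and RPS29 at -0.024 with the block and -0.24 with limma voom. With 1 library left out RPS4X ran from -1.04 to 0.16, RPS3A from -0.23 to 0.49 and RPS29 from -0.72 to 0.39. With CR-1-31-B, RPS4X ran from -2.52 to 0.14 and RPS3 from -0.52 to 0.00480.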
